A study of Mus musculus with 14 samples.

Results

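The 10 mouse genes examined, of 36401 in the deposited tables, encode parts of the machinery with which enteroendocrine cells make, store and release serotonin and peptide hormones: Tph1, Tac1, Chga, Chgb, Scg2, Scg3, Scg5, Scgn, Cpe and Pcsk1. They were taken by symbol from a given list, all 10 were in the files, and all 10 passed the filter on low counts that left 14750 genes for testing. RNA had been sequenced in 14 libraries from the small intestine of mice of the C57Bl6 strain, aged 6 to 12 weeks and labelled male. Ileum was collected 5 to 8 cm from the cecum and jejunum 5 to 8 cm from the pylorus, with no treatment named. In each region there were 3 libraries of crypt cells (crypt), 2 of cells selected by LGR5, a Wnt pathway receptor and marker of the stem cells at the crypt base (LGR5), and 2 of sorted cells that were CD44+, CD24 low and CD166+ (CD166). How LGR5 cells were selected is not said, no reporter allele is named, and the labels call all 3 populations stem cells. The labels also hold a protocol for Matrigel culture of sorted cells, while the design text has the sorted cells go straight into RNA lysis buffer. Nothing says that each library of a group had a mouse of its own, so p-values below measure the spread between these libraries, which may be technical. In bulk RNA, fewer cells of a type and less RNA per cell cannot be told apart.

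Enteroendocrine cells are rare secretory cells of the gut epithelium that release hormones and amines from dense-core granules when nutrients, microbial products or mechanical force stimulate them. Those that make serotonin, called enterochromaffin cells, are the main source of serotonin in the body, and the peptide hormones are cut from larger precursors inside the granule. Granins (chromogranins and secretogranins) are acidic proteins that pack the granule, proprotein convertase PC1/3 cuts precursors after pairs of basic residues, and carboxypeptidase E trims the residues left at the ends. The same machinery works in neurons, in the adrenal medulla and in pancreatic islets.

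The libraries held 6295828 to 20380369 expected counts. Levels below are CPM, the counts of a gene relative to all counts of its library, after TMM scaling unless stated otherwise. The summed level of 9 stem cell genes was 9780 to 20600 CPM in the LGR5 libraries, 11500 to 14500 CPM in the CD166 libraries and 1440 to 5720 CPM in the crypt libraries, and the summed level of 10 enterocyte genes was 6810 to 50000 CPM in the crypt libraries against 1050 to 2570 CPM in the sorted ones. The library labelled ileum crypt 3 had 25.1 CPM of the total count of Fabp6, an ileal bile acid binding protein, against 2820 and 2000 in the other ileum crypt libraries, and it was the library most alike to jejunum crypt 1 (17.5% of genes differed beyond counting noise, against at least 38.9% in every other pair). Ileum crypt 1 and jejunum crypt 2 had high Xist (1760 and 1160 CPM of the total count) and no more than 0.159 CPM of any of 4 Y-linked genes, against the male label. The 8 sorted libraries held Xist (204 to 1480 CPM of the total count) together with all 4 Y-linked genes (Ddx3y at 4.42 to 38.4 CPM of the total count), also against that label, while the other 4 crypt libraries had Xist at 2.50 to 3.03. This moves with the split between sorted and crypt cells, and its part in the population comparisons was not tested. Ileum crypt 1 and jejunum crypt 2 also had the highest summed immune gene levels (2290 and 3130 CPM, against 216 to 381 CPM in the other crypt libraries). Results that use the crypt libraries are therefore also given without these pairs, where that changed a call or a count.

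The stretches of genome before the start sites of 5 of the genes are shown first, because they show which letters of the cAMP response element, the site read by CREB and ATF factors and known from granin promoters, stand in front of these genes. RefSeq (GRCm38.p6) gave windows of 250 bases before to 50 bases after a start site for 9 of the 10 genes, 10 windows in all. No window was matched for Cpe. The palindrome TGACGTCA was found in 3 of the 10 windows, those of Chgb, Scg2 and Pcsk1, and in 1.79% of all 32851 windows of the same length. Its core TGACG, searched on both strands and contained in every palindrome, was found in 9 of the 10 windows and in 20.8% of all. By gene, the core was found in 8 of the 9, all but Scgn. The E-box CANNTG, searched on both strands, was found in 6 of the 10 windows and in 72.3% of all. A match describes letters only, and binding was not measured. In the 250 bases before the start site below, written 5′ to 3′ on the gene's strand, capitals mark the palindrome or its core, with CGTCA being the core on the other strand. Chgb lies at chr2:132781392-132781641 (plus strand), Scg2 at chr1:79440027-79440276 (minus strand), Pcsk1 at chr13:75089607-75089856 (plus strand), Chga at chr12:102554691-102554940 (plus strand) and the window of Tph1 that holds the most cores at chr7:46667378-46667627 (minus strand).
Chgb: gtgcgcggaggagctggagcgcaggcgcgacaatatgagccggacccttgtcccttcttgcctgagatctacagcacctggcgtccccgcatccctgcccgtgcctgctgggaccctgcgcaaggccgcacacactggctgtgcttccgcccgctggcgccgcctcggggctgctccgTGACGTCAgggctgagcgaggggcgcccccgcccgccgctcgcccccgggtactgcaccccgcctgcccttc
Scg2: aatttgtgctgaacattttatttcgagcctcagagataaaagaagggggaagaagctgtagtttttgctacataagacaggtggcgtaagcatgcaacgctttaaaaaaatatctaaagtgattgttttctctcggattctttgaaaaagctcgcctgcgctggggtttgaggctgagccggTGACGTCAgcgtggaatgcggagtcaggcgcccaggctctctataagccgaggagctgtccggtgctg
Pcsk1: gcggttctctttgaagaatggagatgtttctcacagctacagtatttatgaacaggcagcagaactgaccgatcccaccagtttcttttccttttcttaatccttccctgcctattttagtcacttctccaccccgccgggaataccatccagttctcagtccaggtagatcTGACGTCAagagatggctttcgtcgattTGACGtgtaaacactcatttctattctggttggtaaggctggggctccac
Chga: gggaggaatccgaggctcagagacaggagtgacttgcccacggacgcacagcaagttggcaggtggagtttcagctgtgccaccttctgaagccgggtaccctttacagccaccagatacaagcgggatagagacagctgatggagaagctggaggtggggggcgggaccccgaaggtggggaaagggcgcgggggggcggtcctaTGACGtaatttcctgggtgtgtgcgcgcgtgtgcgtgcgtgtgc
Tph1: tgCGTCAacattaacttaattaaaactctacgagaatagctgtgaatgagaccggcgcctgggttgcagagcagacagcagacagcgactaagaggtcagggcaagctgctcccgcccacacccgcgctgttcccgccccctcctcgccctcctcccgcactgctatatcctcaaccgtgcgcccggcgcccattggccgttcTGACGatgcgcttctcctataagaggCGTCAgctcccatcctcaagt
Counted back from the start site, the palindrome ran from -72 to -65 in Chgb, from -68 to -61 in Scg2 and from -78 to -71 in Pcsk1. Chga held a core from -44 to -40, and this Tph1 window held 3, beginning at -248, -47 and -21.

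As the mean of the regions, all 10 genes were higher in CD166 cells than in LGR5 cells. For 9 of them the highest of the 14 values was in jejunum CD166. Within the ileum alone, none of the 10 passed edgeR's test against LGR5 cells, where 0.0136% of tested genes did. The genes differed in the ileum: the levels of Tph1, Tac1 and Chga in the ileum CD166 libraries lay within or below the range of the crypt libraries, while Scg2, Scg3, Scg5, Scgn, Cpe and Pcsk1 were higher in all 4 CD166 libraries than in all other libraries. The values by library follow in the order of the genes' roles.

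**Figure D1:**
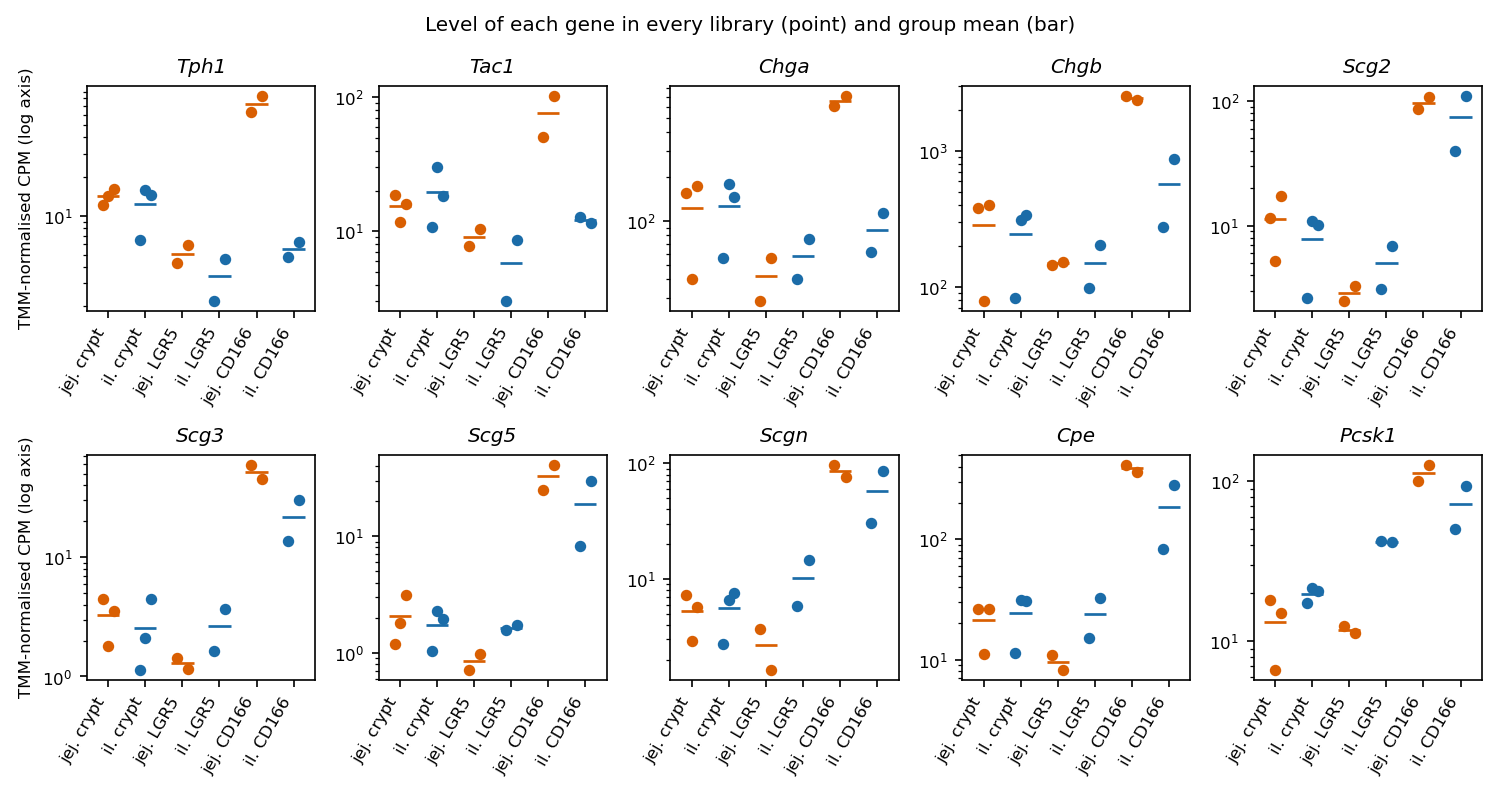
TMM-normalised CPM of the 10 genes (log axis, scaled per gene) in each of 14 libraries (points; orange jejunum, blue ileum) with the mean of each group (bar). For Tph1 the jejunum CD166 libraries sit at 62.8 and 83.2 CPM and the ileum CD166 libraries at 4.80 and 6.31 CPM, while for Scg2 the CD166 libraries of both regions sit at 39.7 to 109 CPM.

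Tph1 (ENSMUSG00000040046, chromosome 7) encodes tryptophan hydroxylase 1, the rate-limiting enzyme of serotonin synthesis in the gut. Its level was 62.8 and 83.2 CPM in the jejunum CD166 libraries and 4.80 and 6.31 CPM in the ileum CD166 libraries. The jejunum crypt libraries had 12.0, 14.2 and 16.1 CPM and the ileum crypt libraries 6.50, 15.8 and 14.3 CPM. It was 4.29 and 5.90 CPM in jejunum LGR5 and 2.21 and 4.63 CPM in ileum LGR5. Jejunum CD166 (73.0 ± 14.4 CPM, SD, n = 2) stood clear of every other group, the crypt groups of both regions overlapped and came next, and the ileum CD166 libraries overlapped the jejunum LGR5 libraries at the low end.

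Tac1 (ENSMUSG00000061762, chromosome 6) encodes the precursor of substance P, a tachykinin that enterochromaffin cells and enteric neurons release. Its level was 51.0 and 102 CPM in jejunum CD166 and 12.7 and 11.5 CPM in ileum CD166. The jejunum crypt libraries had 18.6, 11.7 and 16.0 CPM and the ileum crypt libraries 10.8, 30.0 and 18.4 CPM. It was 7.75 and 10.4 CPM in jejunum LGR5 and 3.03 and 8.61 CPM in ileum LGR5. As for Tph1, only the jejunum CD166 libraries stood clear of all others, and the ileum CD166 libraries lay within the range of the crypt libraries.

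Among the granins, Chga (ENSMUSG00000021194, chromosome 12), which encodes chromogranin A, also stood clear in jejunum CD166. Its level was 606 and 705 CPM in jejunum CD166, and 61.2 and 113 CPM in ileum CD166, inside the crypt range of 40.3 to 178 CPM. In LGR5 it was 28.7 and 56.0 CPM in jejunum and 40.5 and 75.7 CPM in ileum. Chgb (ENSMUSG00000027350, chromosome 2), for chromogranin B, was at 2540 and 2390 CPM in jejunum CD166 and 275 and 880 CPM in ileum CD166, where the lower library lay inside the crypt range of 79.5 to 401 CPM. LGR5 libraries held 146 and 153 CPM in jejunum and 99.3 and 203 CPM in ileum.

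The secretogranins were high in the CD166 libraries of both regions. Scg2 (ENSMUSG00000050711, chromosome 1), the precursor of the peptide secretoneurin, was at 85.8 and 107 CPM in jejunum CD166 and 39.7 and 109 CPM in ileum CD166, against 2.62 to 17.2 CPM in the crypt libraries and 2.50 to 6.89 CPM in the LGR5 libraries. Scg3 (ENSMUSG00000032181, chromosome 9), which anchors granin aggregates to the granule membrane, was at 58.9 and 44.9 CPM in jejunum CD166 and 13.7 and 30.0 CPM in ileum CD166, against 1.14 to 4.50 CPM in crypt and 1.15 to 3.66 CPM in LGR5. For Scg2 the CD166 values of the regions overlapped, and for Scg3 they did not.

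Of the genes for processing, Cpe (ENSMUSG00000037852) encodes carboxypeptidase E. It was at 412 and 363 CPM in jejunum CD166 and 83.7 and 284 CPM in ileum CD166, against 11.1 to 31.2 CPM in crypt, 11.0 and 8.27 CPM in jejunum LGR5 and 15.2 and 32.5 CPM in ileum LGR5. Pcsk1 (ENSMUSG00000021587, chromosome 13) encodes PC1/3. It was at 100 and 126 CPM in jejunum CD166, 50.4 and 93.0 CPM in ileum CD166, and 42.1 and 41.5 CPM in ileum LGR5, against 12.4 and 11.2 CPM in jejunum LGR5 and 6.65 to 21.4 CPM in crypt. The ileum LGR5 libraries thus lay between the CD166 and the crypt values, with no overlap with either.

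Scg5 (ENSMUSG00000023236, chromosome 2) encodes 7B2, the chaperone of the convertase PC2. It was at 24.8 and 40.6 CPM in jejunum CD166 and 8.31 and 29.5 CPM in ileum CD166, and between 0.716 and 3.16 CPM in all 10 other libraries. Scgn (ENSMUSG00000021337, chromosome 13) encodes secretagogin, a calcium-binding protein of endocrine cells that takes part in granule release. It was at 96.5 and 76.7 CPM in jejunum CD166 and 30.7 and 85.7 CPM in ileum CD166, against 5.79 and 14.6 CPM in ileum LGR5, 3.70 and 1.64 CPM in jejunum LGR5 and 2.74 to 7.55 CPM in crypt. The ratio of the highest to the lowest library ran from 18.9 for Pcsk1 to 58.9 for Scgn.

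Levels of different genes were compared per kilobase of exon, with union exon lengths from the GENCODE M21 annotation (GRCm38), since the deposited values come from the mm9 build. In jejunum CD166 cells the mean level per kilobase was 899 CPM for Chgb, 238 for Chga and 148 for Cpe. It was 53.5 for Scgn, 38.4 for Scg2, 22.4 for Tac1, 20.9 for Scg5, 20.1 for Pcsk1 and 19.0 for Scg3. Tph1 was the lowest at 11.8 CPM per kilobase. In ileum CD166 cells Chgb (211), Cpe (70.5) and Scgn (35.9) led, Chga followed at 31.5 and Tph1 stood at 0.900 CPM per kilobase. In both groups Chgb had the highest and Tph1 the lowest level per kilobase of the 10 genes.

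CD166 cells were compared with LGR5 cells as the mean of the differences in the 2 regions. All 10 genes rose, against 1.61% of the tested genes that rose and 0% that fell (edgeR quasi-likelihood test, Benjamini-Hochberg adjusted p under 0.05 over 14750 genes). DESeq2 called 10, while limma-voom called 8, without Chga (limma-voom adjusted p = 0.0703) and Chgb (0.0679). The median log2 difference was 3.39 for the 10 genes and 0.00 for all tested genes. The largest differences were those of Scg2 (4.47 ± 0.55 SE, 22.2-fold, edgeR adjusted p = 0.00198), Scg5 (4.38 ± 0.49, 20.8-fold, adjusted p = 0.00142), Scg3 (4.19 ± 0.48, 18.2-fold, adjusted p = 0.00158) and Cpe (4.14 ± 0.50, 17.7-fold, adjusted p = 0.00179). Scgn was 13.8-fold higher and Chgb 7.94-fold higher. The smallest were those of Tph1 (2.27 ± 0.32, 4.83-fold), Chga (2.27 ± 0.50, 4.81-fold, edgeR adjusted p = 0.0483), Tac1 (4.17-fold) and Pcsk1 (2.02 ± 0.28, 4.05-fold). In 8 of the 10 genes every CD166 library was above every LGR5 library, which held for 4.41% of tested genes. The exceptions were Tph1 and Chga, for each of which 1 ileum CD166 library lay inside the range of the LGR5 libraries.

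The contrasts within each region were added after the levels had been seen. In the jejunum, 9 genes were higher in CD166 than in LGR5 cells, where 1.35% of tested genes were, and Chgb missed the threshold (4.04 ± 0.90, edgeR adjusted p = 0.0556). In the ileum none of the 10 passed edgeR's test, where 0.0136% of genes did, although 6 had an unadjusted p under 0.05 and DESeq2 called 5 and limma-voom 0. The ileum differences were 3.90 for Scg2, 3.52 for Scg5, 3.04 for Scg3, 2.95 for Cpe and 2.52 for Scgn, against 0.71 for Tph1, 0.58 for Chga, 0.78 for Pcsk1, 1.06 for Tac1 and 1.93 for Chgb. Leaving out single libraries left 7 to 10 genes called over both regions, always with the same direction. The call of Chga was lost without any library but ileum crypt 1 or jejunum crypt 2 (2.01 to 2.53). That of Chgb was lost without any 1 LGR5 library, ileum CD166 2 or either jejunum CD166 library (2.46 to 3.29 over all libraries left out), and that of Tac1 without ileum LGR5 1, either jejunum LGR5 library, either ileum CD166 library or jejunum CD166 2 (1.76 to 2.53).

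CD166 cells were next compared with crypt cells. There 7 genes rose, against 13.6% of tested genes: Scg5 (3.70 ± 0.40, 13.0-fold), Scgn (3.68 ± 0.41, 12.9-fold), Cpe (3.54 ± 0.41, 11.6-fold), Scg3 (3.51 ± 0.39, 11.4-fold), Scg2 (3.16 ± 0.44, 8.91-fold), Pcsk1 (2.46 ± 0.24, 5.50-fold) and Chgb (2.17 ± 0.51, 4.49-fold, edgeR adjusted p = 0.00899). The other 3, Tph1 (0.62 ± 0.27, edgeR adjusted p = 0.100), Tac1 (0.80 ± 0.33, adjusted p = 0.0915) and Chga (0.93 ± 0.43, adjusted p = 0.119), did not pass. The first 6 of the risen genes were also those for which all 4 CD166 libraries lay above all 10 others, as 1.64% of tested genes did.

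Within the jejunum, all 10 genes were higher in CD166 than in crypt cells, where 7.89% of tested genes were. Within the ileum, 6 were, where 3.23% were: Scg2 (3.25), Scg3 (3.08), Scg5 (3.44), Scgn (3.37), Cpe (2.91) and Pcsk1 (1.86 on the log2 scale). In the ileum, Tph1 differed by -1.13 ± 0.40 (edgeR adjusted p = 0.107), Tac1 by -0.71 and Chga by -0.54, none past the threshold, and Chgb by 1.23. The calls of the 7 genes were the same without the Xist-high crypt pair and without the most alike pair of crypt libraries, and Chgb lost its call without ileum CD166 2 (edgeR adjusted p = 0.0559).

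LGR5 cells had less Tph1, Tac1 and Chga than crypt cells. Tph1 fell by 1.65 ± 0.29 on the log2 scale (edgeR adjusted p = 0.00213), Tac1 by 1.27 ± 0.36 (adjusted p = 0.0213) and Chga by 1.33 ± 0.45 (adjusted p = 0.0447). These 3 of 10 stand beside 18.5% of tested genes that fell and 31.5% that changed in either direction. The values of the other genes were -1.32 ± 0.48 for Scg2 (edgeR adjusted p = 0.0575), -0.82 for Chgb, -0.68 for Scg3, -0.68 for Scg5, -0.60 for Cpe, -0.10 for Scgn and 0.44 for Pcsk1. DESeq2 called 4 genes, Scg2 added (DESeq2 adjusted p = 0.0138), and limma-voom 2, without Chga (limma-voom adjusted p = 0.0803). Without the Xist-high crypt pair 5 genes fell, with Scg2 (-1.69) and Chgb (-1.25) added, and without the most alike crypt pair 1 did, Tph1 (-1.64, edgeR adjusted p = 0.00616). Tph1 was the gene that fell within each region too (ileum -1.84 ± 0.42, jejunum -1.46 ± 0.41), beside 4.12% and 13.8% of tested genes. The call of Tac1 was lost without ileum LGR5 1 or either jejunum LGR5 library (-1.77 to -0.99 over all libraries left out), and that of Chga without any library but ileum crypt 1 or jejunum crypt 2 (-1.65 to -1.15).

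**Figure D2:**
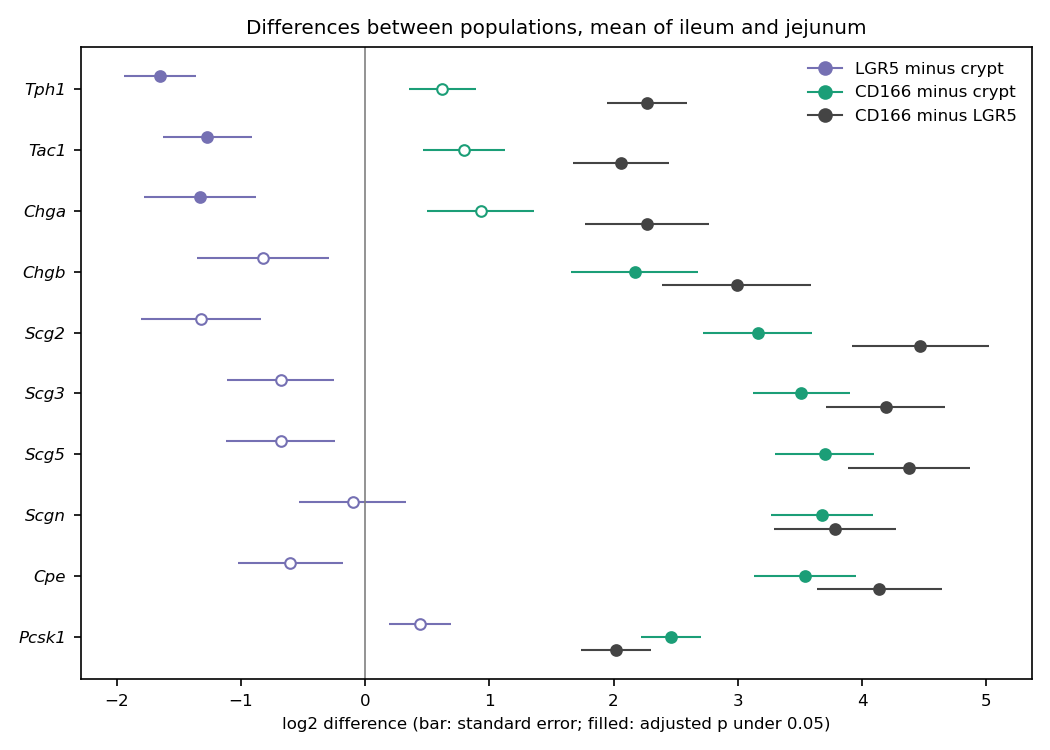
Log2 difference (x axis) between populations for each gene, as the mean of the ileum and jejunum differences, with its standard error (bar); filled points passed edgeR's test at an adjusted p under 0.05. Every CD166 minus LGR5 point is filled and lies between 2.02 and 4.47, and the LGR5 minus crypt points of Tph1, Tac1 and Chga are the filled ones left of 0.

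Between the regions, 1 of the 10 genes changed. As the mean over the 3 populations Tph1 was 2.84-fold lower in the ileum (-1.50 ± 0.24, edgeR adjusted p = 0.00777). Beside it, 2.02% of tested genes fell and 5.01% changed. Its value ran from -1.71 to -1.36 over the fits that left out 1 library. The regions stood apart for Tph1 only in CD166 cells (4.80 to 6.31 CPM in ileum, 62.8 to 83.2 CPM in jejunum). Ileum and jejunum libraries overlapped in crypt cells (6.50 to 15.8 and 12.0 to 16.1 CPM) and in LGR5 cells (2.21 to 4.63 and 4.29 to 5.90 CPM). Tac1 (-0.99 ± 0.29, edgeR adjusted p = 0.0816), Chga (-0.81 ± 0.37, adjusted p = 0.281) and Chgb (-0.77 ± 0.43, adjusted p = 0.423) did not pass. The others lay between -0.20 (Scg3) and 0.57 (Pcsk1, edgeR adjusted p = 0.158).

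Within CD166 cells Tph1 was 13.1-fold lower in the ileum (-3.71 ± 0.46, edgeR adjusted p = 0.0253), and Tph1 was the only gene of 14750 called lower there (0.00678%); 0.0203% were called in either direction. Chga (-2.91 ± 0.72, edgeR adjusted p = 0.214), Tac1 (-2.66 ± 0.55, adjusted p = 0.166) and Chgb (-2.09 ± 0.82, adjusted p = 0.647) did not pass, and Scg3 (-1.25), Cpe (-1.07), Scg5 (-0.79), Pcsk1 (-0.65), Scgn (-0.57) and Scg2 (-0.37) were nearer to 0. In 7 of the 10 genes both ileum libraries lay below both jejunum libraries, which was so for 21.3% of tested genes. DESeq2 called 3 genes (Tph1, Tac1 and Chga) and limma-voom 2 (Tph1 and Tac1), and edgeR called Tph1, Tac1 and Chga in a fit of the CD166 libraries alone. Without the Xist-high crypt pair edgeR called 2, Tph1 and Chga (adjusted p = 0.0245). The call of Tph1 was lost without any 1 of the 4 CD166 libraries (edgeR adjusted p between 0.156 and 0.422), either jejunum LGR5 library (0.0671 and 0.0632) or jejunum crypt 3 (0.0524), while its value stayed between -3.92 and -3.52.

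In LGR5 cells none of the 10 genes passed edgeR's test between the regions, beside 0.698% of tested genes. Of the 10, 2 had an unadjusted p under 0.05, DESeq2 called 1 and limma-voom 0. Pcsk1 came nearest, at 1.82 ± 0.39 higher in the ileum (edgeR adjusted p = 0.0582), followed by Scgn (1.96 ± 0.69, adjusted p = 0.218) and Cpe (1.31 ± 0.66, adjusted p = 0.419). Pcsk1 passed with DESeq2 (adjusted p = 0.000568) and in edgeR fits of the LGR5 libraries alone (0.000465), without the Xist-high pair (0.00803), without the most alike pair (0.0383), without the library labelled ileum crypt 3 (0.0492) and without jejunum crypt 2 (0.0131). In 5 genes, Scg3, Scg5, Scgn, Cpe and Pcsk1, both ileum LGR5 libraries were above both jejunum ones, as 27.4% of tested genes were. The summed goblet cell list moved the same way, at 8550 and 25000 CPM in ileum LGR5 against 3550 and 2120 CPM in jejunum LGR5. Ileum LGR5 2 stood apart from the other 3 LGR5 libraries, with 9780 CPM of the stem cell list against 17400 to 20600 CPM and 715 CPM of the tuft cell list against 199 to 231 CPM. Without it Pcsk1 was at 1.83, Scgn at 1.14, Cpe at 0.65, Scg5 at 0.85 and Scg3 at 0.36, with 0 genes called. The part of other secretory cells in these values was not tested.

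In crypt cells 0 of the 10 genes differed between the regions, as did 0% of tested genes. None had an unadjusted p under 0.05 and neither DESeq2 nor limma-voom called any. The values ran from -0.57 (Scg2) to 0.55 (Pcsk1), with Tph1 at -0.21 ± 0.34. Without the library labelled ileum crypt 3 none was called either, and Tph1 stood at -0.35.

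**Figure D3:**
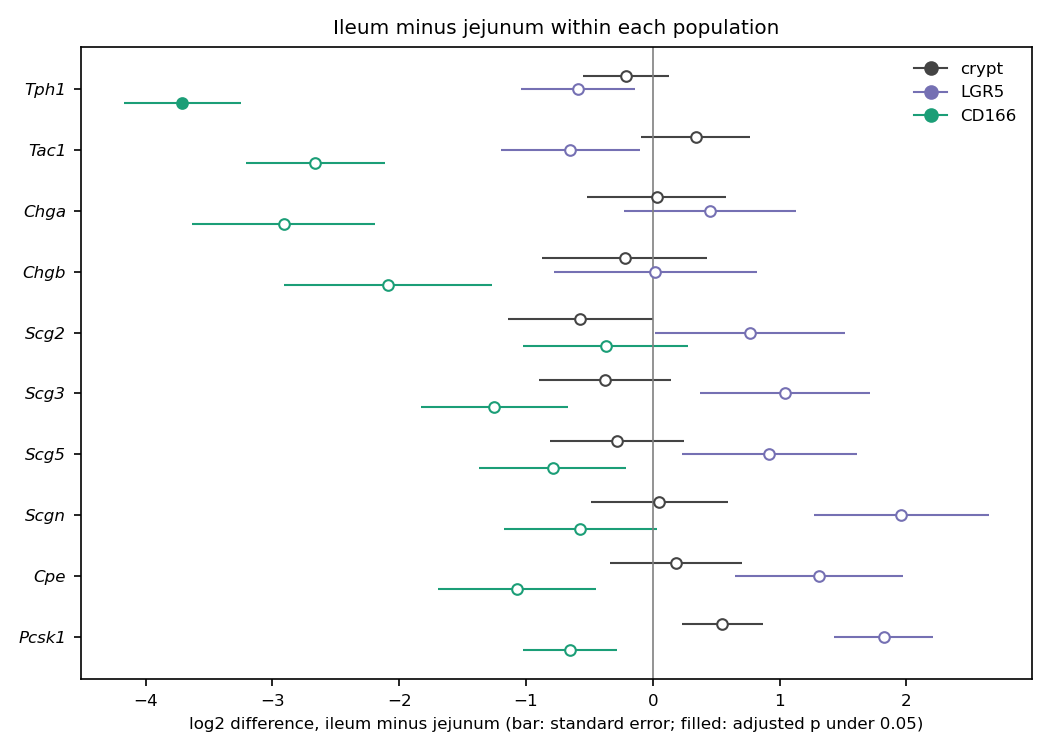
Log2 difference between ileum and jejunum (x axis; below 0 is lower in ileum) of each gene in crypt, LGR5 and CD166 cells, with its standard error (bar); the filled point passed edgeR's test. Tph1 in CD166 cells, at -3.71, is the filled one, and the CD166 points of all 10 genes lie below 0.

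Whether the regional difference itself differed between the populations was tested with the region by population interaction. None of the 10 genes passed in edgeR, beside 0.0136% of tested genes. In simulated counts this test recovered 0% of genes changed 2-fold and 16% of those changed 4-fold, so a gene that did not pass may still differ. Of the 10, 5 had an unadjusted p under 0.05, DESeq2 called 3 (Tph1, Tac1 and Pcsk1) and limma-voom 0. The lowest edgeR adjusted p was that of Tph1 (0.267). It was 0.00852 without the Xist-high crypt pair and 0.0255 without ileum crypt 1. The difference between CD166 and LGR5 cells in the ileum minus jejunum value was below 0 for all 10 genes, from -3.36 ± 0.97 for Chga and -3.12 ± 0.62 for Tph1 (edgeR adjusted p = 0.576) to -1.14 for Scg2. None was called by edgeR, as 0% of tested genes were, 7 had an unadjusted p under 0.05, DESeq2 called 2 (Tph1 and Pcsk1) and limma-voom 0. For this contrast the simulated counts gave a recovery of 0% at 2-fold and 7% at 4-fold.

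Counts set against Chga in the same library show how the proportions of the genes differed, with no scaling between libraries involved. There were 10.4 and 11.8 Tph1 counts per 100 Chga counts in jejunum CD166, 7.84 and 5.60 in ileum CD166, 5.44 and 6.12 in ileum LGR5, 14.9 and 10.5 in jejunum LGR5, and 7.72 to 11.5 in the crypt libraries other than jejunum crypt 2, which had 35.3. Between the CD166 groups this ratio differed by far less than the levels of Tph1 and Chga themselves. Cpe was highest against Chga in CD166 cells: 1.37 and 2.52 Cpe counts per Chga count in ileum, 0.680 and 0.514 in jejunum, 0.153 to 0.277 in crypt and 0.148 to 0.430 in LGR5. Pcsk1 was at 0.824 and 0.825 counts per Chga count in ileum CD166 and 1.04 and 0.549 in ileum LGR5, against 0.165 and 0.178 in jejunum CD166, 0.432 and 0.200 in jejunum LGR5 and 0.0867 to 0.308 in crypt. Chgb was at 4.49 and 7.82 counts per Chga count in ileum CD166, 4.19 and 3.38 in jejunum CD166, 2.45 to 5.08 in LGR5 and 1.49 to 2.44 in crypt.

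**Figure D4:**
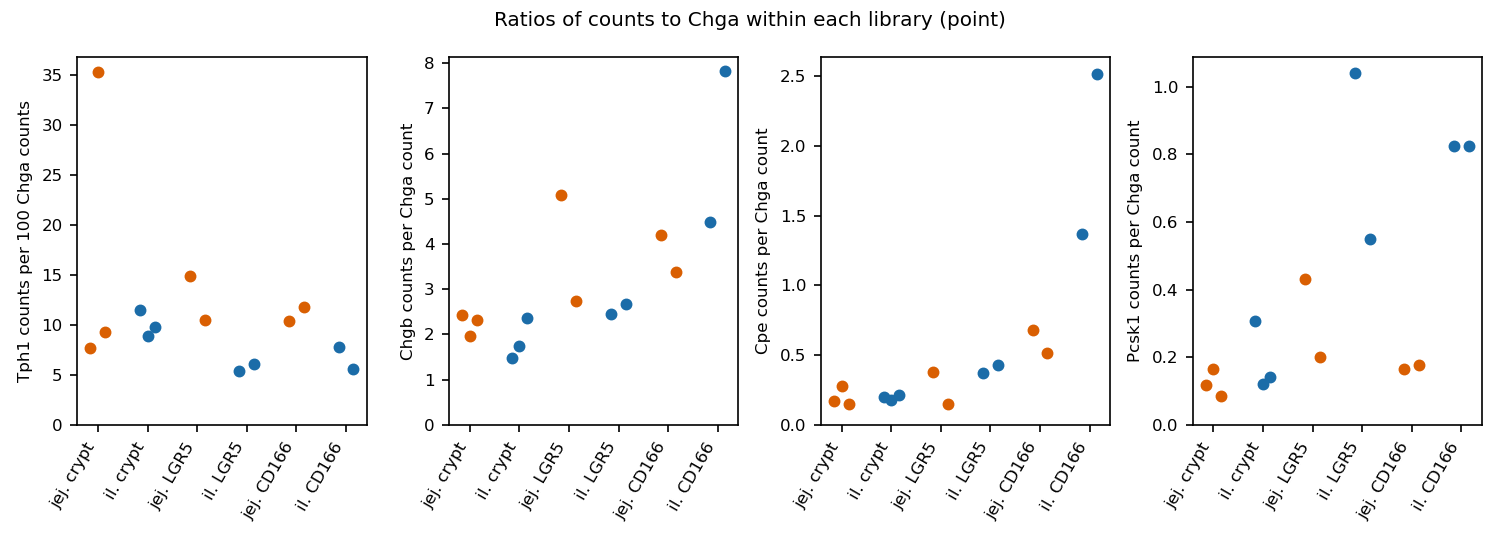
Counts of Tph1 (per 100 Chga counts) and of Chgb, Cpe and Pcsk1 (per Chga count) in each library (points; orange jejunum, blue ileum; linear axes from 0). The ileum CD166 libraries have the highest Cpe ratios, 1.37 and 2.52, while jejunum crypt 2 stands apart for Tph1 at 35.3.

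The profiles of the genes over the 14 libraries were compared by the root mean square difference of centred log2 CPM, as a description. The closest pairs were Scg3 and Cpe (0.33), Scgn and Cpe (0.34), Scg3 and Scgn (0.45) and Tph1 and Tac1 (0.46), and the farthest was Tph1 and Scgn (1.69). Among 13070 other genes whose mean log2 CPM was 0 or more, those nearest to the mean profile were Resp18 (0.32), a granule protein, Gm11992 (0.39), Cadps (0.40), which primes dense-core granules for release, Cdk5r2 (0.41), Syp (0.42), a vesicle membrane protein, Fxyd6 (0.42), Gng4 (0.42) and Pcsk1n (0.42), an inhibitor of PC1/3. Those nearest to Tph1 alone were Slc38a11 (0.40), Rab3c (0.43), a small GTPase of secretory vesicles, Cwh43 (0.50), Serpinf2 (0.59) and Lmx1a (0.60), a transcription factor of enterochromaffin cells. All these points share the libraries and their depths.

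Of 12 listed genes of serotonin handling other than Tph1, 11 were tested, Tph2, the neuronal hydroxylase, being too low. Between CD166 and LGR5 cells 2 of the 11 rose, beside 1.61% of all tested genes: Gch1 (2.24), which starts the synthesis of the hydroxylase's cofactor, and Slc18a1 (1.69), a vesicular amine transporter. The list's median was 0.27 against 0.00 for all genes. Between LGR5 and crypt cells 6 of the 11 fell, beside 18.5% of all tested genes, among them Maoa (-2.23), which breaks serotonin down, Ddc (-1.74), the decarboxylase that completes its synthesis, and the uptake transporter Slc6a4 (-1.23). The other vesicular transporter, Slc18a2, was lower in the ileum over the populations (-1.01), as 1 of the 11, beside 2.02% of all tested genes. It was at 1.85 and 3.00 CPM in ileum CD166 and 8.27 and 11.3 CPM in jejunum CD166. Slc18a1 was higher in the ileum in LGR5 cells (2.41), beside 0.698% of all tested genes called there in either direction. The higher of the ileum LGR5 libraries held 21.4 CPM, and the jejunum LGR5 libraries held 3.10 and 2.79 CPM. Slc18a1 went the other way in CD166 cells, without passing (-1.01 ± 0.34, edgeR adjusted p = 0.49), and differed little in crypt cells (0.25 ± 0.28). The enterocytes that crypt libraries also hold are known to express Maoa, Ddc and Slc6a4, and the summed enterocyte list was highest in the crypt libraries, as given above. Its part in those differences was not tested.

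Of the other granule proteins and processing enzymes, 10 were listed and tested. In CD166 against LGR5 cells 7 rose, beside 1.61% of all tested genes, and against crypt cells 7 rose, beside 13.6%. The list's medians were 3.10 and 2.62. Examples were Ptprn (4.42 against LGR5), a granule membrane protein also called IA-2, Pcsk1n (3.92), Resp18 (3.68) and Pam (2.34), the enzyme that amidates peptide ends. Pcsk2, which encodes PC2, the partner of Scg5, did not pass. It was at 0 in all 4 LGR5 libraries, so no fold is given, and at 0.964 and 2.46 CPM in jejunum CD166 and 0.0923 and 0 CPM in ileum CD166. The median against LGR5 cells includes its fitted value, which depends on the prior count. Between the regions Cpd (0.64) and Nucb2 (1.17) rose in the ileum and none fell, beside 5.01% of all tested genes called in either direction. Within CD166 cells none of the 10 was called (median -0.84), beside 0.0203%.

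Of 17 genes of regulated exocytosis, 6 rose in CD166 against LGR5 cells (median 1.17), beside 1.61% of all tested genes. Against crypt cells 11 rose (median 1.21), beside 13.6%. The SNARE protein gene Snap25 (2.43), the vesicle gene Syp (3.21), Rab3b (3.08), the calcium sensor relative Syt13 (2.35), Cplx2 (1.88) and the priming factor gene Unc13a (2.12) were the 6. Rab3c was lower in the ileum over the populations (-1.30) and fell in LGR5 against crypt cells (-1.20). Its values were 21.7 and 29.8 CPM in jejunum CD166, 2.31 and 1.40 CPM in ileum CD166 and 1.10 to 6.92 CPM elsewhere. Over the populations, Syt7, a calcium sensor, and Rab3d were higher in the ileum (1.57 and 0.97). Of all tested genes, 5.01% were called there in either direction. In LGR5 cells Syt7 was at 22.5 and 76.8 CPM in ileum and 5.13 and 3.77 CPM in jejunum. In CD166 cells the regions overlapped for Syt7, with 26.9 and 37.7 CPM in ileum and 46.1 and 34.8 CPM in jejunum.

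Among gut hormone genes, 8 of 10 listed were tested, and 4 rose in CD166 against LGR5 cells, beside 1.61% of all tested genes. These were Gip (5.74), Sst (5.84), Sct (3.80) and Cck (3.62), and the list median was 3.47. Against crypt cells Sct, Cck, Gip, Sst, Ghrl and Pyy rose, beside 13.6% of all tested genes, and Gcg did not pass (1.17, edgeR adjusted p = 0.0526). Nts fell against crypt cells (-2.34, edgeR adjusted p = 0.0195) and did not pass against LGR5 cells (0.50, adjusted p = 0.901). Gcg, Nts and Pyy, the hormones of L and N cells, were higher in the ileum over the populations (3 of 8), beside 5.01% of genes called in either direction. None of the 8 was called lower there (Gip -1.83, edgeR adjusted p = 0.127). In CD166 cells Gcg was at 339 and 367 CPM in ileum and 50.8 and 52.7 CPM in jejunum, and Gip, the K cell hormone, was at 234 and 1400 CPM in ileum and 3450 and 6700 CPM in jejunum. Within CD166 cells none of the 8 was called between the regions, beside 0.0203% of all tested genes.

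The enteroendocrine transcription factors, 12 listed and tested, had 7 that rose in CD166 against LGR5 cells (median 1.86), beside 1.61% of all tested genes. Pax6 (3.69) and Isl1 (3.51) were among these 7. Against crypt cells 9 rose (median 2.59), beside 13.6%. Neurog3, which starts the lineage in progenitors, rose in LGR5 against crypt cells (1.62) and was not higher in CD166 than in LGR5 cells (-0.62). None of the 12 was called between the regions. Lmx1a, which did not pass, was at 11.1 and 17.6 CPM in jejunum CD166 and 1.02 and 2.04 CPM in ileum CD166.

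Tph1, Tac1 and several of the granins are also made by mast cells or enteric neurons, so the markers of these cells were read beside them. The 12 mast cell genes summed to 128 and 178 CPM in ileum CD166, 73.1 and 89.8 CPM in jejunum CD166, 32.2 to 286 CPM in LGR5 and 31.3 to 300 CPM in crypt libraries. Kit, a receptor that is not limited to mast cells, held most of this in the CD166 libraries (68.0 to 175 CPM). In these 4 libraries the mast cell genes Cpa3, Mcpt1, Ms4a2 and Cma1 were at 0, and Mcpt2 was at most at 0.0744 CPM. Hdc, the histidine decarboxylase gene of the same list, was at 2.69 to 4.47 CPM in them, against 0.603 to 1.44 CPM in crypt and 0.716 to 1.80 CPM in LGR5 libraries, and rose in CD166 against crypt cells (2.00, edgeR adjusted p = 0.00178). Mcpt1 reached 111 CPM in jejunum crypt 2, the library with 35.3 Tph1 counts per 100 Chga counts, and 40.4 CPM in ileum crypt 1. In jejunum crypt 2 Tph1 was at 14.2 CPM, between the other jejunum crypt libraries (12.0 and 16.1 CPM). Chga was at 40.3 CPM there, against 156 and 174 CPM in those libraries. Ileum crypt 1 had the lowest Tph1 of the crypt libraries, 6.50 CPM. The part of mast cells in the crypt values of Tph1 was not tested. Of 11 enteric neuron genes, 3 were tested and 2 rose in CD166 against LGR5 cells, beside 1.61% of all tested genes. These were the neurofilament genes Nefl (4.27) and Nefm (2.88). The neuron list summed to 9.97 to 46.7 CPM in the CD166 libraries and to 2.76 to 6.03 CPM elsewhere. Its defining members Hand2 and Vip were at 0 in all CD166 libraries. Paneth cell genes, whose product granules differ from endocrine ones, summed to 32500 to 52900 CPM in CD166 cells, to 5070 to 9360 CPM in LGR5 cells and to 5810 to 43500 CPM in crypt cells, and the tuft cell list summed to 273 to 706 CPM in CD166, 199 to 715 CPM in LGR5 and 79.6 to 199 CPM in crypt cells. The part of other secretory cells in the results was not tested.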

How the data were processed

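Genes were measured by RNA sequencing (TruSeq libraries, single-end reads of 50 bases) in 14 libraries of 6 groups. The authors deposited 2 tables of 36401 genes per library. One has RPKM in its name but its expected counts, as deposited, are not scaled (50.6% of values above 0 are whole within 0.001). The other holds deposited log2 values, which after centring follow the same counts (largest difference 9.7e-07 where each library had over 50 counts). The submitters' processing notes name mm9 and DESeq. No aligner, counting program or annotation is given, so whether counting used strand is unknown.

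Expected counts were rounded and filtered with filterByExpr (minimum count 10, minimum total 15; 14750 genes) in edgeR 4.0.16 (R 4.3.3). TMM factors scaled the libraries. One robust quasi-likelihood model was fitted with the 6 group means. Benjamini-Hochberg adjustment ran over the 14750 genes in each of 9 comparisons, and calls needed an adjusted p under 0.05. The standard error is the log2 difference divided by the square root of F. The script was tested on simulated data. DESeq2 1.42.0, limma-voom (limma 3.58.1) and other settings were alternatives.

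The members and the 15 further gene lists were chosen with earlier results of these data known. Every member was tested in every comparison, but in some of them only part of the members is given with its own value. From each further list called genes are named (all where there are at most 4, otherwise chiefly the 4 with the highest level), some uncalled genes are given with values, and others in the text were chosen after their values were seen. The genes nearest in profile were the 8 closest to the mean of the members and the 5 closest to Tph1.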

Additional observations from a re-analysis of the deposited data

How the results depend on the processing

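The counts of called genes were recomputed with other scalings, filters and tools, with the compared groups alone, without the crypt libraries in doubt (high in Xist, or most alike) and without each library in turn. The contrasts within 1 region and the crossed replicate numbers were added after seeing the data. With single libraries left out, CD166 minus crypt had 6 to 8 called genes, against 7 with all libraries. For the other comparisons this range was 7 to 10 for CD166 minus LGR5, 1 to 4 for LGR5 minus crypt, 1 throughout for the regions over all populations, 0 to 1 for the regions in CD166 and in LGR5 cells and for the interaction, and 0 throughout for the regions in crypt cells and for the difference between CD166 and LGR5 cells. DESeq2 as the test called 4 genes for LGR5 minus crypt, 2 for the regions over all populations, 1 in LGR5, 3 in CD166, 3 for the interaction and 2 for the difference of differences. Limma-voom called 8 for CD166 minus LGR5, 2 for LGR5 minus crypt and 2 between the regions in CD166. Without a filter on low counts, and with the deposited log2 values, 8 were called for CD166 minus LGR5 and 2 for LGR5 minus crypt, and with library totals 9 and 2. The compared groups alone gave 1 in LGR5, 3 in CD166 and 2 for the difference of differences. Without the Xist-high crypt pair 1 was called in LGR5, 2 in CD166, 2 for the interaction and 5 for LGR5 minus crypt, and without the most alike pair 1 in LGR5 and 1 for LGR5 minus crypt. Within the ileum alone and within the jejunum alone LGR5 minus crypt gave 1 each, and CD166 minus LGR5 gave 0 in the ileum. Over these fits the share of all tested genes called in either direction moved as well. It ran from 5.61% to 37.3% for LGR5 minus crypt, 8.37% to 39.2% for CD166 minus crypt and 0.0136% to 4.16% for CD166 minus LGR5. For the regions over all populations it was 0.889% to 9.53%, in LGR5 cells 0.0129% to 12.2% and in CD166 cells 0% to 4.14%. It was 0% to 5.87% in crypt cells, 0% to 0.23% for the interaction and 0% to 0.159% for the difference of differences.

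Some differences that had not been called changed sign. For the regions over all populations Scg5 was 0.01 without the Xist-high pair and Cpe -0.05 with limma-voom, and over single libraries left out Scg2 ran from -0.36 to 0.12, Scg5 from -0.44 to 0.16 and Cpe from -0.24 to 0.34. In crypt cells Tph1 was 0.10 and Chga -0.03 without the Xist-high pair, and Scgn was -0.08 and Cpe -0.01 with limma-voom. Over single libraries left out, the crypt values ran from -0.44 to 0.09 for Tph1, -0.09 to 0.64 for Tac1, -0.38 to 0.39 for Chga, -0.66 to 0.19 for Chgb, -0.56 to 0.24 for Scg5, -0.23 to 0.39 for Scgn and -0.11 to 0.53 for Cpe. In LGR5 cells Chgb was -0.02 with library totals and -0.06 with limma-voom and with the deposited log2 values, and ran from -0.60 to 0.44 over single libraries left out, and Chga from -0.07 to 1.02. In CD166 cells Scg2 ran from -1.28 to 0.16. For LGR5 minus crypt Scgn was 0.05 with library totals and 0.17 without the most alike pair, and ran from -0.55 to 0.15. Within the ileum alone Scg3 was 0.03 and Scgn 0.86 for LGR5 minus crypt, and Tph1 was -1.13, Tac1 -0.71 and Chga -0.54 for CD166 minus crypt, and within the jejunum alone Pcsk1 was -0.19 for LGR5 minus crypt. The cause was not tested.

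Whether the replicate numbers pair the libraries could not be decided. Same-numbered crypt libraries had correlations of deviations of -0.39, -0.45 and 0.38. Crossed crypt numbers ran from -0.64 to 0.62, the highest for ileum crypt 1 with jejunum crypt 2. With 2 libraries in a group the deviations mirror each other, so crossing the numbers only changes the sign. LGR5 libraries had -0.21 for the same and 0.21 for crossed numbers, and CD166 libraries -0.29 and 0.29. With the replicate number as a block, 2 genes were called for LGR5 minus crypt and 8 for CD166 minus crypt, Tph1 added, and the other counts of called genes were as without it. Under that block Chga was -0.11 and Scgn -0.03 in crypt cells, Chgb -0.05 between the regions in LGR5 cells and Scgn 0.04 for LGR5 minus crypt. With crossed numbers as a block 9 genes were called for CD166 minus LGR5 and 2 for LGR5 minus crypt, with Scgn at -0.12 in crypt cells and Chgb at -0.07 in LGR5 cells. The lowest count of any of the 10 genes in a library was 6, for Scg5 in jejunum LGR5 1.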
